A study of Mus musculus with 8 samples.

Results

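The subject is a gene row that the deposited count table lists as GeneID100861531, without a name. With it stand 9 genes for RNA polymerase I (Pol I) transcription and the nucleolus. They were followed in the cerebral cortex of mouse embryos labelled Taf8-deleted, compared with Taf8-intact embryos. The 10 members, of 27179 genes in the table, were taken by identifier for the row and by symbol for Polr1a, Polr1b, Ubtf, Rrn3, Taf1a, Taf1b, Taf1c, Taf1d and Ncl. All 10 passed the filter on low counts. The annotation used here (RefSeq of GRCm38.p6 and GENCODE M21) gives the row no name either. Whether it is the precursor of ribosomal RNA was therefore not tested, and it is called the unnamed row throughout. The row was chosen by its high count in Taf8-deleted cortex, and all members were proposed with the fold changes of this comparison known, so their differences between the groups are given as a description, without p-values.

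RNA polymerase I makes a single transcript, the precursor of the large ribosomal RNAs, from many repeated genes in the nucleolus. It is placed on the promoter by UBF (gene Ubtf) and by SL1, a complex of TBP with the proteins of Taf1a, Taf1b, Taf1c and Taf1d, and it is made ready to start by RRN3. TBP is also part of TFIID, the complex to which the TAF8 protein belongs and which places RNA polymerase II on the promoters of mRNA genes. Growing progenitor cells of the embryonic cortex have a high demand for ribosomes.

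The 4 Taf8-deleted embryos carried a null and a loxP-flanked Taf8 allele (Taf8 -/lox), and the 4 Taf8-intact embryos were wild type (Taf8 +/+). The sources used here do not give the recombinase, its driver or the embryonic age. Each library came from 1 embryo, and polyadenylated RNA was made into unstranded libraries, per the labels. In the labels' animal numbers most intact embryos share the part before the point while each deleted embryo has its own, so the genotype cannot be told apart from whatever that part marks. The libraries held 39590959 to 44788200 counts. Taf8 had 30, 14, 29 and 14 counts in the deleted libraries and 1491, 1383, 1222 and 1403 in the intact libraries, so the Taf8 counts fit the label in every library. The cortical genes Emx1, Pax6, Tbr1, Eomes, Neurod6 and Bcl11b were present in every library, with at least 1854 counts each.

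The unnamed row was the most abundant entry of the table in every Taf8-deleted library and an ordinary abundant entry in the intact ones. It had 453892, 477949, 412896 and 247103 counts in the deleted libraries and 28145, 28329, 24508 and 37657 counts in the intact libraries. The groups lay far apart: the lowest deleted library held 7.08 times the share of the highest intact one. By raw count the row ranked 1 in all 4 deleted libraries, and 126, 118, 146 and 69 in the intact libraries. The deposited length of the row is 5868 bases, and per kilobase it ranked 6, 6, 6 and 11 in the deleted libraries and 414, 397, 494 and 259 in the intact libraries.

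As a share of all counts the row took 1.01%, 1.11%, 0.956% and 0.624% of the deleted libraries, or 0.927% ± 0.212 (SD, n = 4). In the intact libraries the shares were 0.0641%, 0.0652%, 0.0579% and 0.0882%, or 0.0689% ± 0.0133 (SD, n = 4). The ratio of the mean shares was 13.5. Exact binomial (Clopper-Pearson) 95% intervals were narrow, for example 0.622% to 0.627% in deleted replicate 4 and 0.0873% to 0.0891% in intact replicate 4. They cover counting error only and treat each read as independent. The libraries had no molecular identifiers and several reads can stem from 1 molecule, so the intervals can understate even that error. The spread between embryos was much wider than these intervals, with a 1.79-fold range among the deleted and a 1.52-fold range among the intact libraries. Deleted replicate 4 was the lowest of its group and intact replicate 4 the highest.

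**Figure D1:**
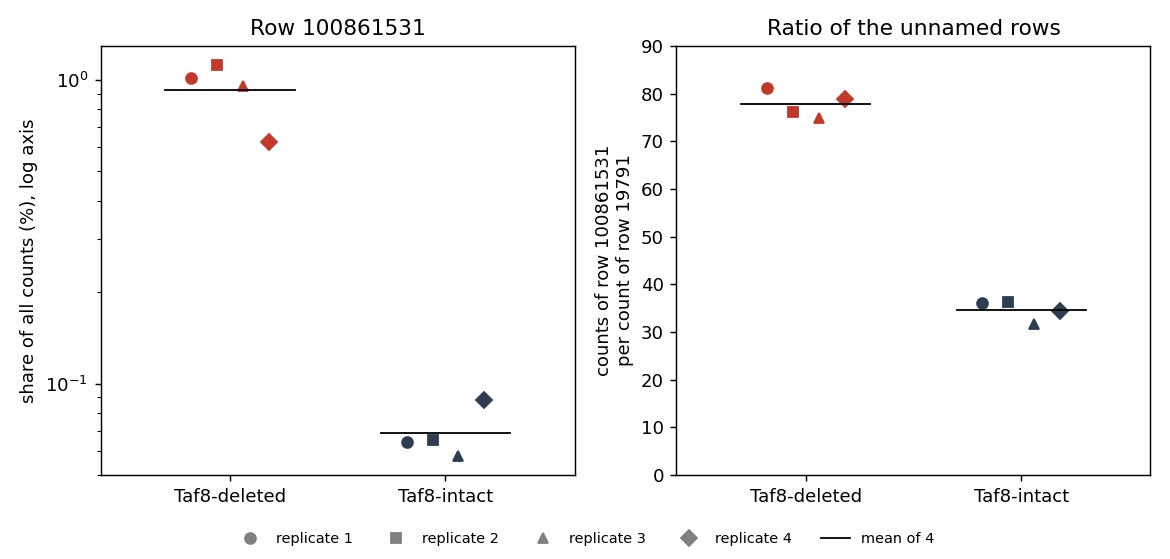
Left, share of all counts taken by the unnamed row in each library (percent, log axis). Right, counts of this row per count of the second unnamed row. Symbols mark replicates and lines the mean of 4 libraries. The deleted libraries hold 0.624% to 1.11% and the intact libraries 0.0579% to 0.0882%, and the ratio of the rows is 74.8 to 81.2 in the deleted and 31.7 to 36.4 in the intact libraries.

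In the fit over all genes the row was higher by 3.69 ± 0.23 (log2 ± SE) in Taf8-deleted cortex, a 12.9-fold difference. Of 16074 genes tested, 22 had a higher log2 fold change. As CPM, counts scaled to a common library size with TMM factors, its level was 9940, 10800, 9330 and 6160 CPM in the deleted and 654, 668, 596 and 893 CPM in the intact libraries. The coefficient of variation among the deleted libraries was 22.4%, compared with 1.37% to 9.42% for the 9 named genes in the same libraries. Leaving out 1 library at a time gave log2 fold changes of 3.60 to 3.84, and leaving out both replicates 4, chosen after seeing the data, gave 3.97.

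Identifiers without a symbol held 1.13% to 1.64% of the counts in the deleted libraries and 0.490% to 0.530% in the intact libraries. Without the unnamed row these shares were 0.5004% to 0.5242% in the deleted and 0.4318% to 0.4596% in the intact libraries. The row therefore made up 55.3% to 68.0% of all counts without a symbol in the deleted libraries, and 11.8% to 16.6% in the intact libraries. The table has 1904 such identifiers.

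A second unnamed row, GeneID19791 in the table, was chosen after its values were seen. It had 5593, 6279, 5518 and 3132 counts in the deleted libraries and 780, 779, 774 and 1093 counts in the intact libraries. It was higher by 2.53 ± 0.23 (log2 ± SE), and its lowest deleted and highest intact library were again the replicates 4. The pair did not keep a fixed ratio between the groups: the unnamed row had 77.8 ± 2.83 counts per count of the second row in the deleted and 34.6 ± 2.16 in the intact libraries (SD, n = 4 each). Within a group the ratio varied much less than the row itself, from 74.8 to 81.2 in the deleted and from 31.7 to 36.4 in the intact libraries.

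The named genes with the profile nearest to that of the unnamed row over the 8 libraries were mostly replication-dependent histone genes. Likeness was the root mean square distance between centred log2 CPM profiles, over genes whose mean log2 CPM reached 2. H4c9, H2bc6, Gm10638, H2bc4 and H2ac6 lay at distances of 0.233, 0.273, 0.300, 0.311 and 0.317 (log2). The histone genes among them encode core histones, made in S phase from mRNAs that usually lack a poly(A) tail. These genes were higher by 3.34 to 3.99 on the log2 scale. Because the groups differ so widely, the distance mainly reflects the size of the group difference. The mean levels of the genes listed were 8.68 to 31.4 CPM in the deleted and 0.574 to 3.10 CPM in the intact libraries. They therefore reached the cut on mean level through the deleted libraries. The row was itself chosen by its high count in deleted cortex, so the likeness is not independent of that choice.

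A list of non-coding RNAs, most of which usually lack a poly(A) tail, does not include the histone mRNAs. Those tested had log2 fold changes of -0.33 to 0.70, where the unnamed row had 3.69. The negative values were those of the mitochondrial ribosomal RNAs, and the RNAs of nuclear genes had 0.17 to 0.70. Of the 20 RNAs listed, 13 were in the table and 6 passed the filter on low counts, of which 1 rose and 1 fell, compared with 63.5% of all genes tested past the threshold in either direction. Rn7sk, the RNA that holds the elongation factor P-TEFb inactive, rose by 0.70 ± 0.22 (log2 ± SE; adjusted p = 0.0152, edgeR). It had 3.09, 2.16, 1.76 and 1.72 CPM in deleted and 1.09, 1.08, 1.65 and 1.57 CPM in intact libraries, so the groups did not overlap but came close. Rpph1, the RNA of ribonuclease P, and Terc, the telomerase RNA, had log2 fold changes of 0.69 ± 0.30 (adjusted p = 0.0654, edgeR) and 0.66 ± 0.29 (adjusted p = 0.0646, edgeR). Both passed with library totals only (adjusted p = 0.0474 for Rpph1 and 0.0449 for Terc, edgeR), a setting that raises the median of all genes by 0.062. Rpph1 also passed in limma voom (adjusted p = 0.0479) and without intact replicate 4 (adjusted p = 0.0329, edgeR). Terc also passed without deleted replicate 2, deleted replicate 4 or intact replicate 2 (adjusted p = 0.0324, 0.0439 and 0.0482, edgeR). Both calls thus depended on the setting. Counts were low, at 6 to 20 in a library for Rpph1 and 12 to 36 for Terc, and the groups overlapped for both. Rmrp, the RNA of ribonuclease MRP, had 0.17 ± 0.36 (adjusted p = 0.706, edgeR).

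The ribosomal RNAs of mitochondria are made by a different polymerase, and neither was higher in the deleted libraries on average. mt-Rnr2, the large one, fell by 0.33 ± 0.09 (log2 ± SE; adjusted p = 0.0130, edgeR). Its level was 293, 360, 296 and 366 CPM in the deleted and 398, 416, 462 and 372 CPM in the intact libraries. It no longer passed when intact replicate 3 was left out (adjusted p = 0.0527, edgeR). mt-Rnr1, the small one, had a log2 fold change of -0.25 ± 0.11 (adjusted p = 0.0663, edgeR). It passed in DESeq2 (adjusted p = 0.0172) and limma voom (adjusted p = 0.0329). It also passed without deleted replicate 2 (adjusted p = 0.0278, edgeR) or intact replicate 4 (adjusted p = 0.0319, edgeR), so the call depended on the setting. Rn5s, one of the copies of the 5S rRNA gene, had 0 counts in every library, which allows up to 0.0670 to 0.0758 CPM in a deleted and 0.0683 to 0.0709 CPM in an intact library. Whether RNA without a poly(A) tail had a part in the result for the unnamed row was not tested.

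Markers of tissue next to the cortex also differed between libraries. The summed level of 4 choroid plexus markers was 911, 52.5, 144 and 1.55 CPM in the deleted and 4.79, 3.35, 12.2 and 289 CPM in the intact libraries. None of the 4 passed the test, and none was at 0 in any library. The summed level of 6 meningeal markers was 60.9, 116, 146 and 18.7 CPM in the deleted and 26.1, 23.5, 15.9 and 36.9 CPM in the intact libraries. Of these 6 markers 4 rose, beside 30.6% of all genes tested that were higher. Deleted replicate 4, the lowest of its group for the unnamed row, was the lowest in both marker sums, and intact replicate 4 was the highest of its group in all 3 measures. The sums of endothelial, microglial and blood markers, given below, had the same lowest deleted and highest intact library. For pericytes and the ganglionic eminences intact replicate 4 was not the highest. The pattern is thus not particular to choroid plexus and meninges. Without deleted replicate 1 and intact replicate 4 the row's log2 fold change was 3.79, and without deleted replicates 2 and 3 it was 3.52, both chosen after seeing the data.

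**Figure D2:**
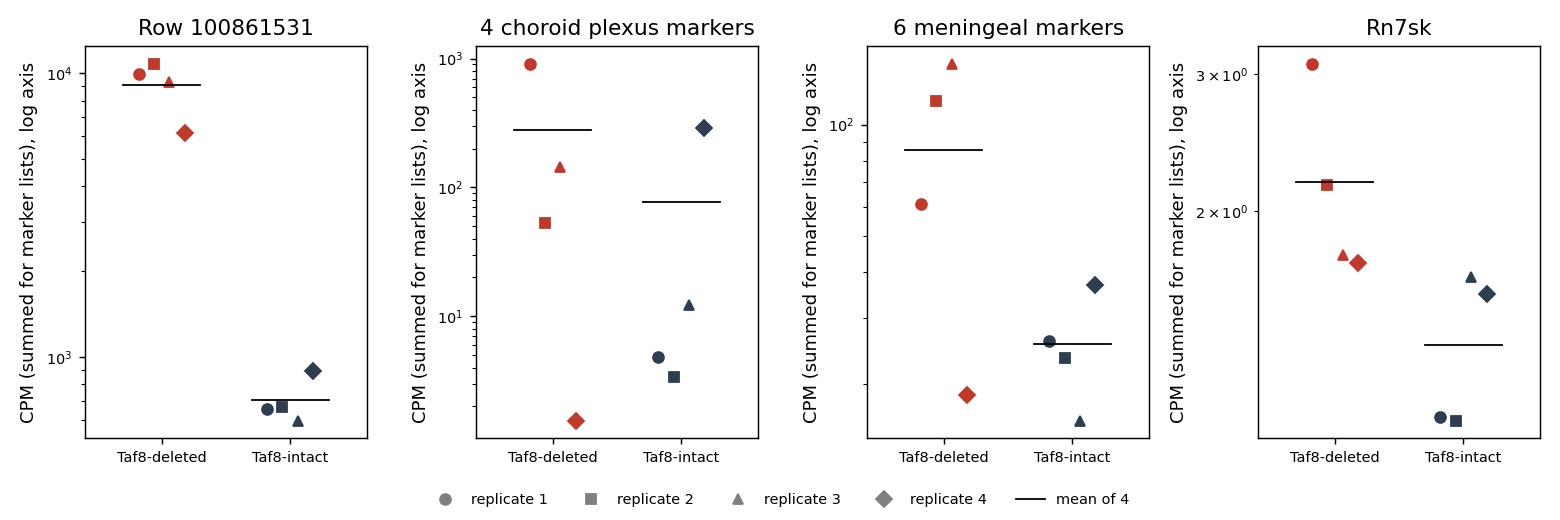
Level of the unnamed row, summed level of the choroid plexus and meningeal markers, and level of Rn7sk in each library (CPM, log axes). Symbols mark replicates and lines the mean of 4 libraries. The row separates the groups in every library, while the marker sums overlap between the groups.

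All 4 endothelial and all 4 pericyte markers rose, beside 30.6% of all genes tested that were higher and 32.9% that were lower. The endothelial sums were 129 to 163 CPM in the deleted and 109 to 118 CPM in the intact libraries. For pericytes the sums were 89.9 to 107 CPM in the deleted and 73.8 to 75.1 CPM in the intact libraries. The same shares of all genes stand beside the marker counts that follow. Of 4 microglial markers 1 rose and 1 fell, with sums of 29.8 to 35.4 CPM in the deleted and 30.2 to 33.8 CPM in the intact libraries. Of 6 blood markers tested 3 rose, with sums of 169 to 223 CPM in the deleted and 130 to 173 CPM in the intact libraries. Of the cortical genes named above, Emx1, Tbr1, Eomes, Neurod6 and Bcl11b fell, by 0.28 to 1.33 on the log2 scale, and Pax6 rose by 0.48. These are single genes and no count over a marker list. All 5 markers of the ganglionic eminences fell, with sums of 417 to 444 CPM in the deleted and 606 to 708 CPM in the intact libraries. In bulk tissue fewer cells of a type and less RNA per cell cannot be told apart, and the part of these shifts in the results was not tested.

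The mRNAs of the Pol I machinery differed far less than the row, which was itself chosen by its high count in deleted cortex. Among the 9 named genes the log2 fold changes ran from -0.62 for Taf1d to 0.32 for Taf1c, with a median of 0.057. The median over all genes tested was close to 0, at 6.3e-05. The median size of the change, regardless of sign, was 0.189 for the 9 genes and 0.273 for all genes tested. A total of 3328 genes changed more than Taf1d. In the fit 3 of the 9 were past the threshold and higher and 4 past it and lower, beside 30.6% of all genes tested higher and 32.9% lower. The CPM of the groups did not overlap for 7 of the 9 genes, compared with 57.7% of all genes tested. Because the genes were chosen with this comparison known, nothing is read from these counts.

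**Figure D3:**
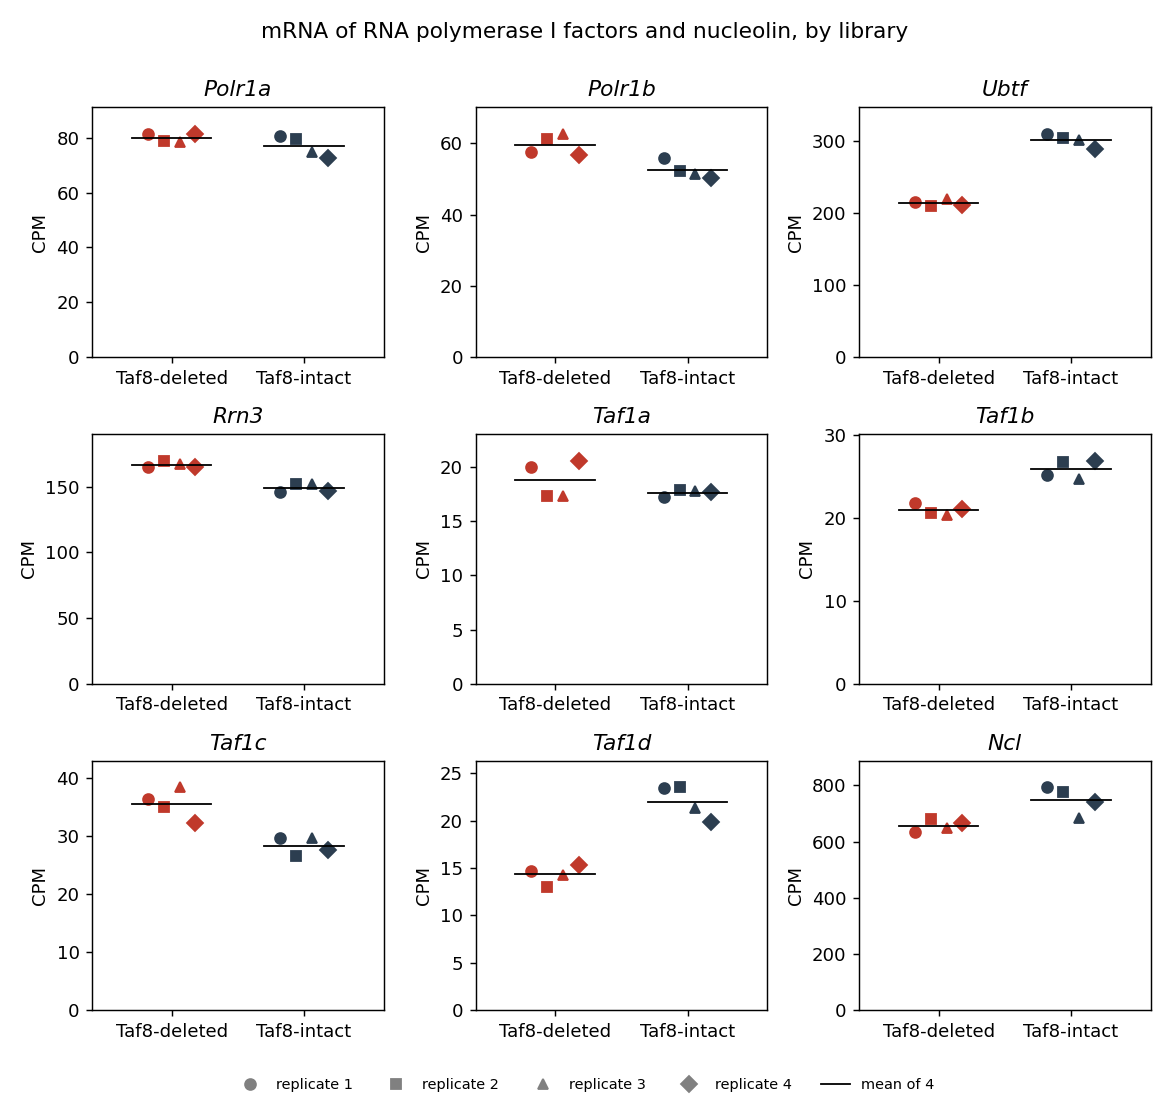
Level of the 9 named genes in each library (CPM, axes starting at 0). Symbols mark replicates and lines the mean of 4 libraries. Ubtf, Taf1b, Taf1d and Ncl lie lower in every deleted than in every intact library, Polr1b, Rrn3 and Taf1c lie higher, and Polr1a and Taf1a overlap.

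Of the genes of the catalytic core of the polymerase, Polr1a overlapped between the groups and Polr1b was slightly higher in deleted cortex. Polr1a encodes the largest subunit (gene ID 20019, chromosome 6, 71909053 to 71979435 in GRCm38). It had 81.5, 78.8, 78.6 and 81.3 CPM in deleted and 80.6, 79.6, 74.9 and 72.6 CPM in intact libraries. These ranges overlapped, and the log2 fold change was 0.06 ± 0.04 (SE). Polr1b encodes the second-largest subunit (gene ID 20017, chromosome 2, 129100970 to 129128060). It had 57.6, 61.3, 62.7 and 56.7 CPM in deleted and 55.8, 52.2, 51.3 and 50.3 CPM in intact libraries. The lowest deleted library was just above the highest intact one, and the log2 fold change was 0.19 ± 0.04.

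The genes of the factors that bring the polymerase to the promoter went in opposite directions. Ubtf encodes UBF, which binds along the ribosomal RNA genes and keeps them open (gene ID 21429, chromosome 11, 102304560 to 102323649). It had 215, 210, 219 and 211 CPM in deleted and 310, 304, 301 and 289 CPM in intact libraries. Every deleted library was thus well below every intact one, with a log2 fold change of -0.49 ± 0.03 (SE), or 0.710-fold. Rrn3 encodes the factor that joins the polymerase to SL1 and is controlled by growth signals (gene ID 106298, chromosome 16, 13780699 to 13814841). It had 165, 170, 167 and 165 CPM in deleted and 146, 152, 152 and 147 CPM in intact libraries. The ranges were apart, and the log2 fold change was 0.16 ± 0.03.

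Within SL1, the complex that recognises the Pol I promoter, the 4 genes did not move together. Taf1d (gene ID 75316, chromosome 9, 15305953 to 15316997) had 14.7, 13.0, 14.3 and 15.3 CPM in deleted and 23.4, 23.5, 21.3 and 19.8 CPM in intact libraries. It was lower in every deleted library, by a log2 fold change of -0.62 ± 0.07 (SE), or 0.651-fold. Taf1b, whose protein resembles the Pol II factor TFIIB (gene ID 21340, chromosome 12, 24498581 to 24558571), had 21.8, 20.6, 20.3 and 21.1 CPM in deleted and 25.2, 26.7, 24.7 and 26.9 CPM in intact libraries. It too was lower in every deleted library, with a log2 fold change of -0.30 ± 0.05. Taf1c (gene ID 21341, chromosome 8, 119597974 to 119605206) had 36.4, 35.0, 38.4 and 32.3 CPM in deleted and 29.7, 26.5, 29.7 and 27.6 CPM in intact libraries. It was higher in every deleted library, by 0.32 ± 0.06. Taf1a (gene ID 21339, chromosome 1, 183388885 to 183410201) had 20, 17.3, 17.3 and 20.6 CPM in deleted and 17.2, 17.9, 17.8 and 17.7 CPM in intact libraries. Of its deleted libraries, replicates 1 and 4 lay above all intact ones and the others within their range, and the log2 fold change was 0.09 ± 0.07.

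Polr1a, Taf1c and Taf1d overlap other genes on the opposite strand, and unstranded reads from such a stretch cannot be assigned to either gene. Exons of Polr1a overlap the antisense gene Gm26628, which was not analysed here. Exons of Taf1c overlap Dnaaf1, which had 38, 31, 16 and 8 counts in the deleted and 11, 7, 12 and 11 counts in the intact libraries, against at least 1126 counts of Taf1c in any library. Exons of Taf1d overlap Cep295 and 4931406C07Rik and hold several small nucleolar RNAs. Taf1d had 572 to 669 counts in the deleted and 833 to 1006 counts in the intact libraries, below both partners. Cep295 had 3524 to 4028 counts in the deleted and 3436 to 4154 in the intact libraries, and 4931406C07Rik had 1543 to 1573 counts in the deleted and 1168 to 1334 in the intact libraries. The partner 4931406C07Rik rose by 0.27 ± 0.05 (log2 ± SE; adjusted p = 0.000841, edgeR), opposite in direction to Taf1d, and Cep295 had -0.06 ± 0.05 (adjusted p = 0.331, edgeR).

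Ncl encodes nucleolin, an abundant nucleolar protein that binds the ribosomal RNA precursor (gene ID 17975, chromosome 1, 86344719 to 86359455). It had 634, 681, 647 and 665 CPM in deleted and 793, 778, 683 and 741 CPM in intact libraries. The highest deleted and the lowest intact library were almost equal, and the log2 fold change was -0.19 ± 0.05 (SE). Exons of Ncl also hold genes of small RNAs on the same strand.

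Set per kilobase of the deposited gene length, the levels of these mRNAs had a different order in the 2 groups. In deleted cortex the order from high to low was Ncl at 79.5 ± 2.50, Rrn3 at 46.3 ± 0.636, Ubtf at 44.5 ± 0.833, Polr1b at 14.9 ± 0.727, Polr1a at 13.1 ± 0.262, Taf1c at 10.9 ± 0.781, Taf1b at 10.4 ± 0.334, Taf1d at 8.43 ± 0.583 and Taf1a at 7.89 ± 0.743 CPM per kilobase (SD, n = 4). Taf1c and Taf1b, and Taf1d and Taf1a, differed by less than their spread there. In intact cortex Ubtf, at 62.6 ± 1.90 CPM per kilobase, stood above Rrn3, at 41.5 ± 0.941. Polr1b at 13.1 ± 0.603, Taf1d at 12.9 ± 1.06, Taf1b at 12.8 ± 0.547 and Polr1a at 12.6 ± 0.619 were within their spread of each other, followed by Taf1c at 8.72 ± 0.491 and Taf1a at 7.40 ± 0.138 CPM per kilobase (SD, n = 4). Ncl was the highest in intact cortex as well, at 90.7 ± 5.94. The unnamed row was at 1550 ± 347 CPM per kilobase in deleted and 120 ± 22.2 in intact cortex (SD, n = 4 each).

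The promoters of 3 of these genes are shown because TFIID acts at such sequences and because their upstream stretches are mostly free of annotated exons and genes. Taf1a also had such a stretch and is not shown, so the choice does not follow from this criterion alone. Taf1c and Rrn3 were higher in deleted cortex and Polr1a overlapped between the groups, so no gene that was lower is among them. The stretches are RefSeq sequence of GRCm38.p6 before the annotated start, 5′ to 3′ on the strand of the gene, at chr8:119605223-119605456 (minus strand) for Taf1c, chr16:13780449-13780698 (plus strand) for Rrn3 and chr6:71908803-71909052 (plus strand) for Polr1a. Capitals mark, on either strand, the letters searched: TATAAA (the TATA box), CACGTG (an E-box), CCGGAA (the core of ETS sites) and CCAAT.
Taf1c: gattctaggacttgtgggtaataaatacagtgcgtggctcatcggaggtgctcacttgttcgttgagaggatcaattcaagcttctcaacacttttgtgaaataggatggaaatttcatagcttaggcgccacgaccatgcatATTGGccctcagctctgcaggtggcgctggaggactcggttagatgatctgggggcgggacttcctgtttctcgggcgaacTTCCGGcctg
Rrn3: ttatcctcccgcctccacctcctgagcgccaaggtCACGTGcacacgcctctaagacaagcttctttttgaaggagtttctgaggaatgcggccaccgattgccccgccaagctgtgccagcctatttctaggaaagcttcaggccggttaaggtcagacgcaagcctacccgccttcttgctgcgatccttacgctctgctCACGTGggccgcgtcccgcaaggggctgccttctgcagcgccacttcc
Polr1a: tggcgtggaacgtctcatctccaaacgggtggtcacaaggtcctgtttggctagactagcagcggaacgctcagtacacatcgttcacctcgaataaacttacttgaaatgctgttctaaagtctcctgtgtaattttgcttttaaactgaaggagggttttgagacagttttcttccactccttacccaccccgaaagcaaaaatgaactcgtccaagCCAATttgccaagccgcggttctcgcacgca

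RefSeq lists 16 promoter windows for the 9 genes, each from 250 bases before to 50 bases after a start, and windows of the same gene can overlap. TATAAA on either strand was in 0 of the 16, and in 13.6% of all 32851 windows. CACGTG, which reads the same on both strands, was in 1 of the 16, that of Rrn3, and in 7.15% of all windows. CCGGAA on either strand was in 5 of the 16, in windows of Rrn3, Taf1a, Taf1b and Taf1c, and in 14.9% of all windows. CCAAT on either strand was in 6 of the 16, in windows of Polr1a, Taf1a, Taf1c and Ubtf, and in 37.4% of all windows. None of the 4 motifs contains another. A match is a description of these letters only.

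Other genes of Pol I transcription, of ribosome assembly and of the growth and p53 signals tied to them changed in both directions. Over 9 lists with 112 genes tested, 56 were past the threshold and higher and 28 past it and lower. Of all genes tested 30.6% were higher and 32.9% lower, or 63.5% in either direction. The same shares stand beside the counts of each list below. Because the lists were chosen with earlier results known, nothing is read from these counts. Rpl11, Rpf1 and Nop53 changed by more than 1 on the log2 scale, and the other genes tested lay between -0.56 and 0.55.

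Of the 11 other subunits of Pol I, 5 rose, 2 fell and 4 did not pass the test, with a median log2 fold change of 0.14. Polr1e, a subunit of the module that helps the polymerase start and elongate, rose by 0.55 ± 0.05 (log2 ± SE), with 26.5 ± 1.53 CPM in deleted and 18.1 ± 0.641 CPM in intact cortex (SD, n = 4 each). Polr2h and Polr2e, subunits that all 3 nuclear RNA polymerases share, rose by 0.35 ± 0.05 and 0.22 ± 0.04. Polr1c, which is shared with RNA polymerase III, fell by 0.13 ± 0.03 (adjusted p = 0.00593, edgeR), a call that was lost with library totals only (adjusted p = 0.137, edgeR) and without deleted replicate 1 and intact replicate 4 (adjusted p = 0.0802, edgeR). With library totals only or upper-quartile factors 7 of the 11 rose and 0 fell.

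Of the 6 cofactors, 3 rose and 2 fell, with a median of 0.06. Nolc1, a nucleolar protein that binds Pol I, rose by 0.34 ± 0.04 (log2 ± SE). Ttf1, which ends Pol I transcription, fell by 0.22 ± 0.05, and Mybbp1a, a nucleolar repressor, fell by 0.20 ± 0.04. Tbp, the subunit that SL1 shares with TFIID, rose by 0.11 ± 0.03, with 51.3, 51.2, 51.2 and 51.9 CPM in the deleted and 48.6, 46.9, 47.1 and 47.8 CPM in the intact libraries. The groups did not overlap (adjusted p = 0.0083, edgeR).

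Of 11 genes for chromatin proteins that act on ribosomal RNA genes, 4 rose, 5 fell and 2 did not pass, with a median of 0.01. Sirt1, a deacetylase of the silencing complex eNoSC, rose by 0.48 ± 0.04 (log2 ± SE). Suv39h1, the histone methyltransferase of the same complex, fell by 0.26 ± 0.04. Kdm2b, a histone demethylase, fell by 0.46 ± 0.03, and Ercc6, a chromatin remodeller of DNA repair that also acts on Pol I genes, by 0.39 ± 0.05.

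Of 8 genes of growth signals that act on Pol I, 3 rose and 3 fell, with a median of -0.01. Mtor, the growth kinase, rose by 0.41 ± 0.04 (log2 ± SE), Myc, a transcription factor that drives ribosome production, by 0.41 ± 0.06, and Rps6kb1, an mTOR target kinase, by 0.27 ± 0.04. Mapk3, the kinase ERK1, fell by 0.56 ± 0.05. Myc had 33.4, 36.4, 36.3 and 33.3 CPM in deleted and 29.2, 23.7, 25.1 and 27.2 CPM in intact libraries.

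**Figure D4:**
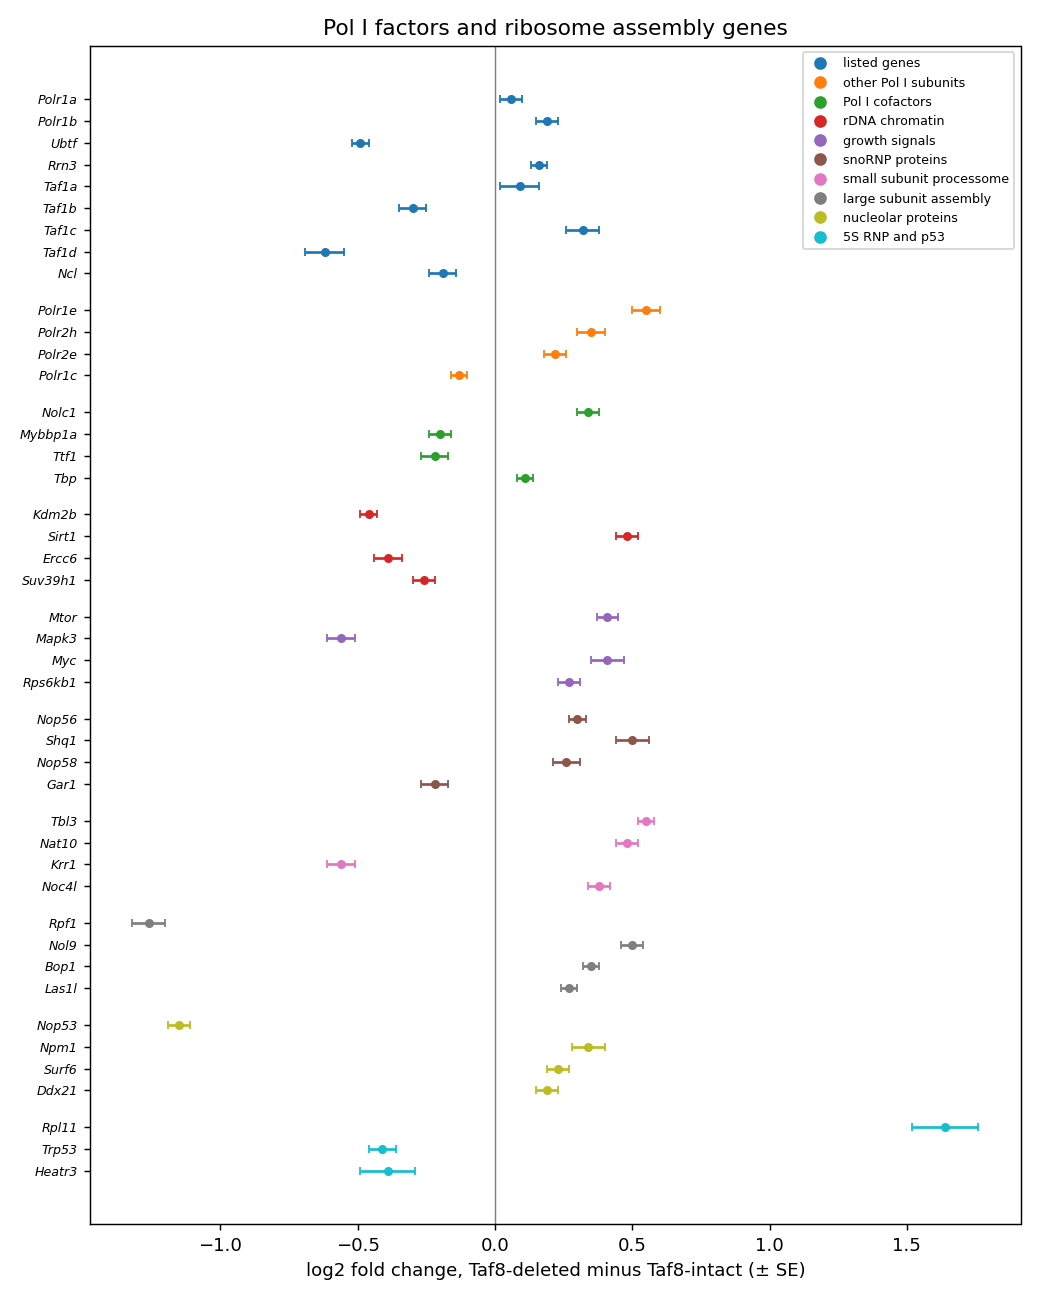
Log2 fold change, Taf8-deleted minus Taf8-intact, of the 9 named genes and of the leading genes of 9 lists (points, with bars of 1 SE). Rpf1, Nop53 and Rpl11 lie outside the range of -0.62 to 0.55 that holds the others drawn. The list of non-coding RNAs is not drawn.

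Factors that modify and cut the ribosomal RNA precursor also moved in both directions. Of 10 proteins of small nucleolar ribonucleoproteins, 6 rose and 2 fell, with a median of 0.13. Nop56 and Nop58, the core of the methylation particles, rose by 0.30 ± 0.03 and 0.26 ± 0.05 (log2 ± SE), and Shq1, an assembly factor of the pseudouridylation particles, by 0.50 ± 0.06. Gar1, a protein of the pseudouridylation particles, fell by 0.22 ± 0.05. Of 28 components of the small subunit processome, 14 rose, 6 fell and 8 did not pass, with a median of 0.11. Tbl3 rose by 0.55 ± 0.03, the RNA acetyltransferase gene Nat10 by 0.48 ± 0.04 and Noc4l by 0.38 ± 0.04, while Krr1 fell by 0.56 ± 0.05.

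Of 28 factors of large subunit assembly, 17 rose, 5 fell and 6 did not pass, with a median of 0.14. Nol9, a kinase of precursor processing, rose by 0.50 ± 0.04 (log2 ± SE), Bop1 by 0.35 ± 0.03 and Las1l, the nuclease that works with Nol9, by 0.27 ± 0.03. Rpf1 fell by 1.26 ± 0.06 and had 13.7, 14.6, 14.0 and 16.2 CPM in deleted and 37.3, 34.1, 32.4 and 35.9 CPM in intact libraries (adjusted p = 1.11e-08, edgeR). The groups lay well apart.

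Of 5 further nucleolar proteins, 3 rose and 1 fell. Nop53, a late factor of the large subunit, fell by 1.15 ± 0.04 (log2 ± SE) and had 51.0, 51.8, 54.3 and 53.5 CPM in deleted and 116, 119, 112 and 121 CPM in intact libraries (adjusted p = 4.57e-10, edgeR). Npm1, nucleophosmin, rose by 0.34 ± 0.06, Surf6 by 0.23 ± 0.04 and the helicase gene Ddx21 by 0.19 ± 0.04.

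Unassembled 5S ribonucleoprotein binds MDM2 and so stabilises p53 when ribosome assembly is disturbed. Of the 5 genes of this route, 1 rose and 2 fell. Rpl11 rose by 1.64 ± 0.12 (log2 ± SE) at a low level of 5.98, 4.83, 4.59 and 5.01 CPM in the deleted and 1.58, 1.81, 1.58 and 1.57 CPM in the intact libraries. Trp53, the gene of p53, fell by 0.41 ± 0.05. Heatr3, which helps the 5S particle form, fell by 0.39 ± 0.10, with groups that overlapped (adjusted p = 0.00717, edgeR), a call lost without deleted replicates 2 and 3 (adjusted p = 0.0566, edgeR) and without deleted replicate 1 and intact replicate 4 (adjusted p = 0.0503, edgeR). Rpl5, the partner of Rpl11, and Mdm2 had log2 fold changes of 0.03 (adjusted p = 0.834, edgeR) and 0.00 (adjusted p = 0.962, edgeR). Ribosomal protein genes have many processed pseudogenes that can take their reads, so the levels of Rpl5 and Rpl11 are uncertain. Of the genes named from the lists, Polr2h, Mybbp1a, Tbp, Kdm2b, Sirt1, Suv39h1, Rps6kb1, Nop56, Tbl3, Krr1, Bop1, Rpl5, Heatr3 and Rmrp share exon sequence with a gene on the other strand.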

How the data were processed

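RNA sequencing of 8 embryonic cortex libraries was analysed, 4 per group. The authors deposited whole-number counts per gene with gene lengths, and the 8 per-embryo lists were identical to the columns of the matrix. The submitters' processing notes name bcl2fastq 1.8.4, Subread 1.5.0, featureCounts and build mm10. The sources used here give neither the annotation nor how multi-mapping reads were counted, which bears on any repeated sequence. Symbols came from RefSeq of GRCm38.p6 by gene identifier, for 25275 of 27179 identifiers, and exon overlaps from GENCODE M21. No per-sample column was left unused (0 columns). Polr1f, Polr1g and Polr1h were matched under the symbols the table uses.

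Counts were tested with edgeR 4.0.16 (R 4.3.3; filterByExpr, 16074 genes left; TMM factors 0.971 to 1.028; robust quasi-likelihood test; Benjamini-Hochberg adjustment over all genes tested; threshold 0.05) after a check on simulated data. SE comes from fold change and F statistic. A positive log2 fold change means a higher level in Taf8-deleted cortex. DESeq2 1.42.0 and limma 3.58.1 served as alternatives. Libraries of one group differed from each other by more than counting noise (chi-square per gene 4.22 to 14.6).

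The members and lists were chosen with earlier results of these data known. The text names all members, Taf8, and from each list the 4 genes of smallest p and up to 2 of the other direction. It also names the tested RNAs of the non-coding list and genes that overlap a member on the opposite strand. The 5 genes nearest to the row in profile are named too. The second unnamed row, Rpl5 and Mdm2 fall outside this rule and were chosen after their values were seen, and the cortical genes come from a marker list. Some markers of the cortical list are not reported here.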

Additional observations from a re-analysis of the deposited data

Results flagged for a closer look

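In 8 of 138 sets of 4 library values, 1 library lay far from the other 3 by Dixon's criterion (critical value 0.829), and chance alone gives about 5%. The choroid plexus marker sum was 911 CPM in deleted replicate 1 and 289 CPM in intact replicate 4, each far above the rest of its group. Polr1c stood at 56.4 CPM in deleted replicate 3, above the rest of its group, and at 57.5 CPM in intact replicate 3, below the rest of its group. Tbp stood highest of its group at 51.9 CPM and Bop1 lowest at 107 CPM, both in deleted replicate 4. Rpl11 stood highest of its group at 1.81 CPM in intact replicate 2. The second unnamed row stood highest of its group at 25.9 CPM in intact replicate 4. The first unnamed row and the 9 named genes had no such library.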

How the results depend on the processing

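The log2 fold change of the unnamed row stayed between 3.52 and 3.97 over 20 alternatives. The median of the 9 named genes was 0.115 with upper-quartile factors and 0.119 with library totals only, against 0.057 with TMM factors. These factors raise the median of all genes by 0.058 and 0.062. No named gene changed the sign of its log2 fold change under any of 21 alternatives. Rmrp, which did not pass the test, had log2 fold changes of -0.09 to 0.43 with 1 library left out, -0.18 without deleted replicates 2 and 3 and 0.00 without both replicates 4; it had at most 20 counts in a library. The same-numbered libraries of the groups shared only a number (correlations of their deviations -0.23, 0.01, 0.00 and -0.46), and with the replicate block 4605 genes were higher and 5060 lower, against 4919 and 5290 without it.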
